A study of Homo sapiens with 4 samples.

Results

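Hypoxia and glycolysis genes were followed in lines recovered from xenografts of SNU-16, a human gastric carcinoma cell line. The members were a list of 33 genes of the low-oxygen response and of glucose breakdown, each read from the probe set with the highest mean among rows that carry its symbol alone. Such a row was found for 31 of the 33, out of 18417 genes in all. CA9, a surface carbonic anhydrase, had no row named for it, and PGAM1, phosphoglycerate mutase, was named only on 5 rows that also carry PGAM4, so neither was measured here. All 31 had a mean above the signal minimum of 5.64 (the 30th percentile of all rows) and were tested. SLC2A3 passed it narrowly and only through its round 1 arrays.

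The groups are ovary and stomach lines of implantation rounds 2 and 1, with 1 array for each combination and 4 in all. SNU-16 cells were placed in the stomach wall of BALB/c nude mice, which lack T cells, and lines were made from metastases in the ovary and from tumours in the stomach wall. Cells of each line were cultured, placed in the stomach wall again and recovered from the same site as before. No genetic change or drug distinguishes the groups, all cells were kept in serum-containing medium in humidified air with CO2, and the labels do not say whether animals were pooled. The descriptions of both round 2 samples contradict their titles on the site; the titles were followed, and an exchange would turn the sign of each site difference within round 2, re-pair the rounds within a site and leave the mean round differences as they are. Because the round 2 line of a site descends from its round 1 line, p-values between sites are set against the spread between successive passages. Those between rounds are set against the spread between the 2 sites within a round. Either spread may be partly technical. In bulk RNA, fewer cells of a type and less RNA per cell cannot be told apart.

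Cells sense oxygen through prolyl hydroxylases that mark the alpha subunits of hypoxia-inducible factor (HIF) for destruction by the VHL ubiquitin ligase. When oxygen is short the marking slows, HIF accumulates and genes for glucose uptake, glycolysis, blood vessel growth and mitochondrial turnover are transcribed. In tumours the same genes are also driven by growth signals, which is why glycolysis can run high in the presence of oxygen. HIF binds DNA at a core of the letters ACGTG or GCGTG.

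Promoters of 8 members are shown as examples of the contrast described below. The mean levels of 6 were lower in ovary lines and higher in round 2 (EGLN3, P4HA1, P4HA2, ANKRD37, KDM3A, ADM), and 2 are enzymes with a lower mean level in round 2 (ENO1 at both sites, LDHA in ovary lines only). Each is 300 bases, 250 before and 50 after a RefSeq start site (GRCh38.p14), written 5′ to 3′ on the gene's strand. Capitals mark ACGTG or GCGTG on either strand, so CACGT and CACGC are capitals too, and CACGTG counts as 2 overlapping matches, 1 per strand. For KDM3A and LDHA, which have 2 entries each, the entry with the most matches, or the first of equals, is shown.
EGLN3 (chr14:33951025-33951324, minus strand): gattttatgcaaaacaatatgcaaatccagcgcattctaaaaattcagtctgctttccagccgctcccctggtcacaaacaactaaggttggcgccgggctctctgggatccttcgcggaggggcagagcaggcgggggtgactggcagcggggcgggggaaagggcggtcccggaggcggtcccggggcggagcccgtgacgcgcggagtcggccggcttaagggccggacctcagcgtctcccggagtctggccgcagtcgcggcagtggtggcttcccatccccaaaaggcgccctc
P4HA1 (chr10:73096817-73097116, minus strand): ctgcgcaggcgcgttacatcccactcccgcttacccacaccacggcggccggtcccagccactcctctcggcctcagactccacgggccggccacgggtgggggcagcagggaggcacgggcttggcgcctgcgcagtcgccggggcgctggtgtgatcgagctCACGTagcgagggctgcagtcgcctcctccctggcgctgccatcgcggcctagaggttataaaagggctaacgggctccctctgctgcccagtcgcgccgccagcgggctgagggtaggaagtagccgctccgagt
P4HA2 (chr5:132227042-132227341, minus strand): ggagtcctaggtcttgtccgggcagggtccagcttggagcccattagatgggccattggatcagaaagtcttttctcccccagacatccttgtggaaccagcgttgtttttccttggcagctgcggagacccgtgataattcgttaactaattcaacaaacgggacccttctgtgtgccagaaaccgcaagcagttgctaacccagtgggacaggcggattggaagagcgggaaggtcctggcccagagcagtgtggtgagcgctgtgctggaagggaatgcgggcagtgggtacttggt
ANKRD37 (chr4:185396591-185396890, plus strand): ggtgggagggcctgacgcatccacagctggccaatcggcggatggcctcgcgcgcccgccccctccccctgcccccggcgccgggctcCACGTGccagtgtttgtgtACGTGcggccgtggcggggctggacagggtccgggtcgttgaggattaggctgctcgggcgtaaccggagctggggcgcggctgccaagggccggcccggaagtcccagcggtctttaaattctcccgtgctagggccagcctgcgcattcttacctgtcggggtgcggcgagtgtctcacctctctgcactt
KDM3A (chr2:86441121-86441420, plus strand): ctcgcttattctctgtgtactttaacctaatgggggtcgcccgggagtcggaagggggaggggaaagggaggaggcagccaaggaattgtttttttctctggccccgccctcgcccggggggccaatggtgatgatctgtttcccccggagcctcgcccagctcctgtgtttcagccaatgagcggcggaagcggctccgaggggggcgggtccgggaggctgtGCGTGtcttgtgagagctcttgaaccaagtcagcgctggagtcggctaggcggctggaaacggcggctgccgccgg
ADM (chr11:10304823-10305122, plus strand): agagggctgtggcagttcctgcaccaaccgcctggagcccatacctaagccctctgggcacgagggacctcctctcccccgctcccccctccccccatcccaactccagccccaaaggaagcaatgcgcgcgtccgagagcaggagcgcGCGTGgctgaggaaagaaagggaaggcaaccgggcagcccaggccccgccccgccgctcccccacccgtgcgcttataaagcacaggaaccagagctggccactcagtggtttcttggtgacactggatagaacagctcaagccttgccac
ENO1 (chr1:8878637-8878936, minus strand): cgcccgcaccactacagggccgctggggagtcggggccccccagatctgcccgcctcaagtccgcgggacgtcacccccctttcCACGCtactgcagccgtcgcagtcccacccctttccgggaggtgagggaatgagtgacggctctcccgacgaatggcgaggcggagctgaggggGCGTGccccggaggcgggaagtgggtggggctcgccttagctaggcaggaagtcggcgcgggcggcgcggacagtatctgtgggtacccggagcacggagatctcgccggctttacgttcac
LDHA (chr11:18394313-18394612, plus strand): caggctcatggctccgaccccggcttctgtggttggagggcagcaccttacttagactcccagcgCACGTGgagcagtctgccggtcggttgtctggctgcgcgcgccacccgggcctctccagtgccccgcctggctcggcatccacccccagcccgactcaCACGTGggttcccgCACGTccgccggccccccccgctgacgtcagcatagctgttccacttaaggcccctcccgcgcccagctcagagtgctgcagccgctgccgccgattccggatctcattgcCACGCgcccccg
Of the 48 entries found for 29 of the members, 35 held at least 1 match (72.9%), against 48.4% of all 35116 entries. Among glycolytic enzymes 19 of 28 entries held a match and among the other members 16 of 20. The letters were thus present in promoters of members that were higher and of members that were lower in round 2. The entries of EGLN3, P4HA2 and PGAM1 held none in this window, and no entry was used for VEGFA, SLC2A3, BNIP3L and NDRG1.

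Array medians lay between 6.80 and 6.84 in log2 units. Across 14547 tested genes, limma called 0 between sites (0% of genes at an adjusted p under 0.05), 0 between rounds (0%) and 0 for the interaction of site and round (0%). At an unadjusted p under 0.05 in limma the shares were 2.6% between sites, 15% between rounds and 1.33% for the interaction. The members reaching it numbered 1 of 31 (P4HA1), 4 of 31 (VEGFA, P4HA2, SLC2A3 and ENO1) and 0 of 31. SLC2A3 is a weak case, since both its round 2 arrays lay below the signal minimum. For the interaction, with no array to spare, the spread came from the site and round differences themselves. The smallest adjusted p of any member in limma was 1 between sites, 0.287 between rounds and 1 for the interaction. With round or site as a block, the smallest for a member were 0.768 between sites and 0.218 between rounds. No member's difference therefore passed the test, and what follows describes levels and differences, with limma's standard error after the ± sign of a difference. With 2 arrays a group, this number limits the precision.

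Members outside the glycolytic enzymes tended to be lower in ovary than in stomach lines and higher in round 2 than in round 1. The enzymes of the pathway, other than ENO2, differed by less than 0.2 log2 units in both comparisons. TPI1 (-0.199) and HK2 (0.196) came close to that bound between rounds. Outside the enzymes PFKFB3, PFKFB4, PDK1, MXI1, DDIT4, NDRG1, BNIP3 and BNIP3L stayed under it as well. Of 18 members outside the enzymes, 14 were lower in ovary (median difference -0.15) and 14 were higher in round 2 (median 0.17). Of 13 enzymes (the steps from hexokinase to pyruvate kinase and LDHA), 5 were lower in ovary (median 0.0028) and 6 were higher in round 2 (median -0.0026). Of all 14547 genes tested, 7178 were lower in ovary (median 0.0016) and 6603 were higher in round 2 (median -0.019). With the round 2 site labels exchanged, as in the descriptions, 8 of the 18 members outside the enzymes were lower in ovary (median 0.055). Of all 14547 genes tested, 7959 were then lower (median -0.012). The site count of the members thus rests on the titles. The round count is the same under either reading. This grouping of the roles was made after the values were seen, and it was not tested.

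The array that stood highest was most often stomach round 2. It held the highest value of 14 of 31 members, 12 of them outside the enzymes, whereas it was highest for 20.4% of all genes. Ovary round 1 held the lowest value of 11 members, against 25.2% of all genes. Without the stomach round 2 array, 9 of 18 members outside the enzymes were lower in ovary and 12 of 18 were higher in round 2, so the site count rested on that array more than the round count did. Without the ovary round 1 array the counts were 13 and 12. Shares over all genes with an array left out are not given.

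**Figure D1:**
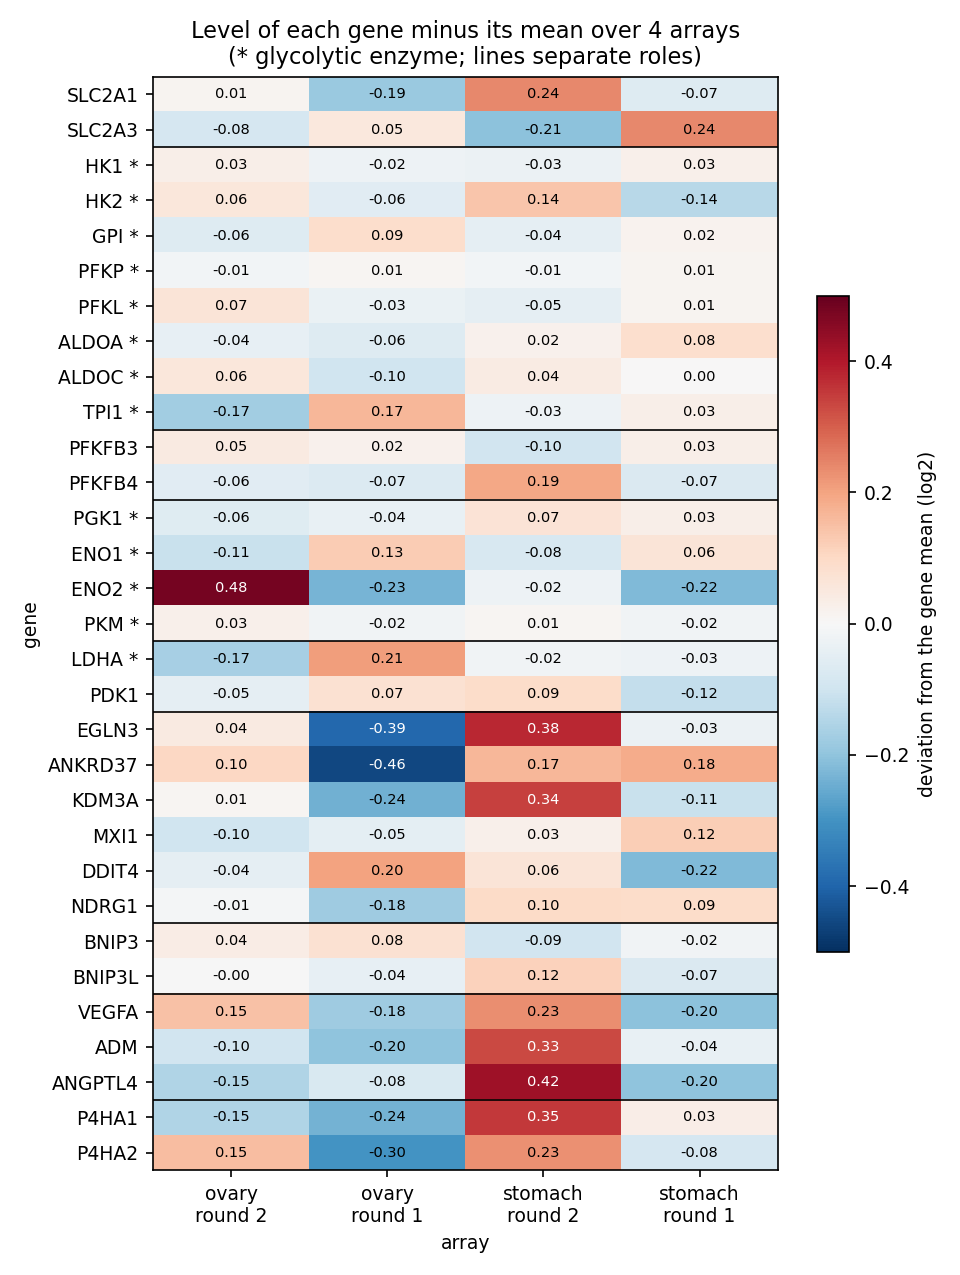
Each row is a member and each column an array, coloured by the level minus that gene's mean over the 4 arrays in log2 units, with the value written in the cell. Red cells gather in the stomach round 2 column and blue cells in the ovary round 1 column for genes without an asterisk, while rows of the 13 glycolytic enzymes are mostly pale.

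Among genes of oxygen sensing and feedback, EGLN3 had the widest spread of all members, 0.77 log2 units. It encodes a HIF prolyl hydroxylase that is itself induced by HIF. Its level was 11.13 in round 2 and 10.69 in round 1 of the ovary lines, against 11.46 in round 2 and 11.06 in round 1 of the stomach lines. As titled, each difference had nearly the same size wherever it was taken. Ovary minus stomach was -0.33 in round 2 and -0.37 in round 1. Round 2 minus round 1 was 0.44 in ovary and 0.41 in stomach. The site groups overlapped, since ovary round 2 lay above stomach round 1, and the round groups did not. The mean differences were -0.35 ± 0.21 for the site and 0.42 ± 0.18 for the round (1.34-fold).

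KDM3A, a histone H3 lysine 9 demethylase induced by HIF, had the same order of arrays. Its levels were 9.38 and 9.13 in ovary rounds 2 and 1, against 9.71 and 9.26 in stomach rounds 2 and 1. Both round 2 arrays lay above both round 1 arrays, and the round difference was 0.35 ± 0.14 (1.28-fold). ANKRD37, an ankyrin repeat protein and HIF target, differed in shape. Its levels were 8.28 and 7.72 in ovary rounds 2 and 1, against 8.34 and 8.36 in stomach rounds 2 and 1. A single array, ovary round 1, was low, and without it the round difference was -0.048 in place of 0.27. In round 1 the ovary line was 0.64 log2 units below the stomach line.

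NDRG1, a stress-responsive gene strongly induced by hypoxia, was also lowest in ovary round 1, with 12.33 and 12.16 in ovary rounds 2 and 1 and 12.44 and 12.43 in stomach rounds 2 and 1. Its site groups did not overlap, the ovary arrays lying below (-0.19 ± 0.10). MXI1, which antagonises MYC, had 8.38 and 8.43 in ovary rounds 2 and 1, against 8.51 and 8.60 in the stomach lines. The ovary arrays again lay below without overlap (-0.15 ± 0.092), and MXI1 was lower in round 2 at both sites. DDIT4, an inhibitor of mTORC1 signalling that also responds to energy and endoplasmic reticulum stress, had a different order. It was 10.37 and 10.62 in ovary rounds 2 and 1 and 10.48 and 10.20 in stomach rounds 2 and 1, so its round difference was -0.24 in ovary and 0.28 in stomach.

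The collagen prolyl 4-hydroxylase subunits, which modify collagen in the endoplasmic reticulum and depend on oxygen, were lower in ovary in both rounds and higher in round 2 at both sites. P4HA1 had 10.28 and 10.19 in ovary rounds 2 and 1, against 10.78 and 10.46 in stomach rounds 2 and 1. The site groups did not overlap, and its difference of -0.39 ± 0.14 was the largest between sites among the members as titled, equal to 1.31-fold higher in stomach. With the round 2 labels exchanged it was 0.11, and ANGPTL4 (0.35) had the largest. P4HA2 had 8.66 and 8.20 in ovary rounds 2 and 1 and 8.74 and 8.42 in stomach rounds 2 and 1. Here the rounds did not overlap and the sites did, with a round difference of 0.38 ± 0.10 (1.31-fold). The paralogs thus differed in which comparison separated their arrays, a contrast between the genes that was not tested. Without stomach round 2, the round difference of P4HA1 was -0.049 in place of 0.20.

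VEGFA, the growth factor for blood vessels, had the smallest unadjusted p of any member between rounds (0.0045 in limma). It stood at 11.01 and 11.09 in round 2 of the ovary and stomach lines, and at 10.68 and 10.65 in round 1. Its level was 11.05 ± 0.061 in round 2 and 10.67 ± 0.018 in round 1 (SD, n = 2 each), a difference of 0.38 ± 0.074 or 1.30-fold, with limma's adjusted p of 0.287. Between sites it differed by -0.030 ± 0.20. ADM, the vasodilator peptide adrenomedullin, separated by site instead, with 8.14 and 8.03 in ovary rounds 2 and 1 against 8.57 and 8.20 in stomach rounds 2 and 1 (-0.29 ± 0.15). ANGPTL4, an inhibitor of lipoprotein lipase, was high in 1 array only. It had 7.15 and 7.22 in ovary rounds 2 and 1 and 7.10 in stomach round 1, but 7.72 in stomach round 2, which was 1.54-fold over its round 1 array. Without stomach round 2 its site difference was 0.087 in place of -0.22 and its round difference -0.012 in place of 0.27.

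**Figure D2:**
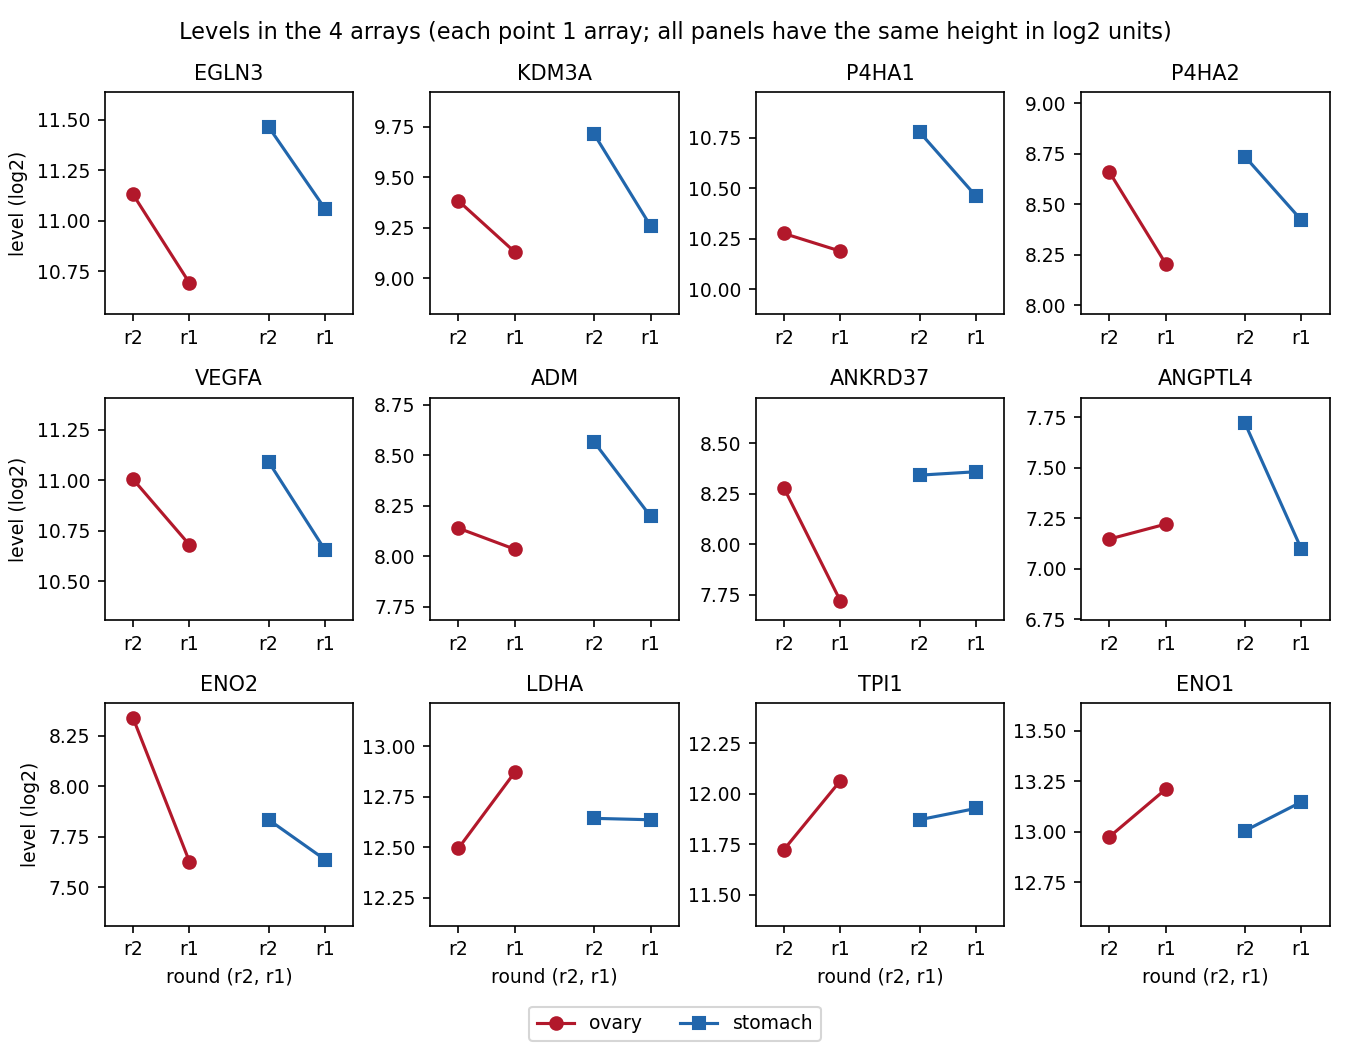
Each panel gives 1 member's level in log2 units in the 4 arrays, circles for ovary and squares for stomach lines, with round 2 (r2) left of round 1 (r1) and a line joining arrays of a site. EGLN3, KDM3A, P4HA1, P4HA2, VEGFA and ADM are higher in round 2 at both sites, with KDM3A, P4HA1 and ADM steeper in stomach, ANKRD37 and ENO2 differ mainly in ovary and ANGPTL4 mainly in stomach, while LDHA, TPI1 and ENO1 slope the other way in ovary.

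Glucose enters through facilitative transporters. SLC2A1, the main transporter of many tumours (GLUT1), had 11.73 and 11.53 in ovary rounds 2 and 1 and 11.95 and 11.65 in stomach rounds 2 and 1. Both round 2 arrays lay above both round 1 arrays (0.25 ± 0.11), and ovary lay below stomach within each round (-0.23 and -0.12). SLC2A3 (GLUT3) was close to the signal minimum. It had 5.63 and 5.76 in ovary rounds 2 and 1 and 5.50 and 5.95 in stomach rounds 2 and 1. It was lower in round 2 (-0.29 ± 0.10). Both round 2 arrays lay below the minimum, so it passed through the round 1 arrays and this difference is not well measured.

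In upper glycolysis the inducible hexokinase HK2 was higher in round 2 at both sites without overlap. HK2 had 10.67 and 10.55 in ovary rounds 2 and 1 and 10.75 and 10.47 in stomach rounds 2 and 1, a round difference of 0.20 ± 0.078. HK1, the widely expressed isoform, was 8.85 and 8.80 in ovary rounds 2 and 1 and 8.79 and 8.85 in stomach rounds 2 and 1. Its round difference was -0.0026 ± 0.073, and its groups overlapped in both comparisons. Of the phosphofructokinases, which catalyse the committed step, the platelet isoform PFKP spanned 0.025 log2 units over the 4 arrays, the narrowest range of any member, and the liver isoform PFKL spanned 0.11. The muscle isoform PFKM, not a member, spanned 0.52, with 9.48 and 9.50 in ovary rounds 2 and 1 and 9.11 and 9.63 in stomach rounds 2 and 1. GPI, which converts glucose-6-phosphate to fructose-6-phosphate, differed by -0.11 ± 0.072 between rounds.

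The aldolases were separated by different comparisons. ALDOA had 10.11 and 10.08 in ovary rounds 2 and 1 against 10.17 and 10.23 in stomach rounds 2 and 1, without overlap between sites (-0.11 ± 0.088). ALDOC had 11.33 and 11.17 in ovary rounds 2 and 1 and 11.32 and 11.27 in stomach rounds 2 and 1, without overlap between rounds (0.099 ± 0.075). TPI1, which interconverts the triose phosphates, had 11.72 and 12.06 in ovary rounds 2 and 1 and 11.87 and 11.93 in stomach rounds 2 and 1. It was lower in round 2 at both sites (-0.20 ± 0.095), and its other probe set was lower in round 2 in each line as well. Of the bifunctional enzymes that set the level of fructose-2,6-bisphosphate, PFKFB4 was high in stomach round 2 alone (8.81, against 8.56 and 8.55 in the ovary lines and 8.54 in stomach round 1). PFKFB3 ranged from 8.51 to 8.65.

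In lower glycolysis the enolase isoforms differed in opposite directions between rounds. ENO2, the enolase of neurons and neuroendocrine cells, was 8.34 and 7.63 in ovary rounds 2 and 1, against 7.84 and 7.64 in stomach rounds 2 and 1. The ovary round 2 array stood apart, 1.64-fold over its round 1 array, and the mean round difference was 0.45 ± 0.18, the largest of any member. ENO1, the enolase of most tissues, had 12.97 and 13.21 in ovary rounds 2 and 1 and 13.01 and 13.15 in stomach rounds 2 and 1, lower in round 2 without overlap (-0.19 ± 0.072). PGK1, which makes the first ATP of the pathway, ranged from 12.41 to 12.54, with both ovary arrays below both stomach arrays (-0.096 ± 0.087). PKM, pyruvate kinase, ranged from 12.12 to 12.16.

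At the fate of pyruvate, the round difference of LDHA was -0.38 in ovary and 0.0070 in stomach lines. That of PDK1 was -0.12 in ovary and 0.21 in stomach lines. LDHA, which reduces pyruvate to lactate, had 12.49 and 12.87 in ovary rounds 2 and 1 and 12.64 in both stomach rounds, so only ovary round 1 was high. PDK1, which blocks entry of pyruvate into the citric acid cycle, had 10.41 and 10.53 in ovary rounds 2 and 1 and 10.55 and 10.34 in stomach rounds 2 and 1. ENO1, LDHA, PGK1 and TPI1 have near-identical pseudogene copies, and a probe set can read transcripts of such copies too. For the mitophagy receptors, BNIP3 had 11.04 and 11.08 in ovary rounds 2 and 1 against 10.91 and 10.98 in stomach rounds 2 and 1, the only member with both ovary arrays above both stomach arrays (0.11 ± 0.090). BNIP3L ranged from 11.07 to 11.25 and was highest in stomach round 2.

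Set side by side, the comparison of sites asked whether cells from ovarian metastases differed from cells of stomach tumours. Both ovary arrays lay below both stomach arrays for 7 of 31 members (ALDOA, PGK1, ANKRD37, MXI1, NDRG1, ADM and P4HA1), against 11.2% of all genes, and above for BNIP3 alone, against 13.4%. With the round 2 site labels exchanged, the ovary arrays lay below for 3 members (HK1, PFKL and PFKFB3) and above for 4. The shares over all genes under that exchange are not given. Ovary was lower within each round for 11 members, against 24.7% of all genes. The median site difference of the 31 members was -0.086 in round 2 and -0.0096 in round 1. A difference of 1.5-fold or more was reached by 0 members in round 2, against 1.22% of genes, and by 1 member, ANKRD37, in round 1, against 2.03%. Markers of epithelium mostly lay in the same direction: 10 of 11 were lower in ovary, against 7178 of 14547 genes. Their median site difference was -0.020 in round 2 and -0.27 in round 1. Summed linear signals were 31241 and 24513 in ovary rounds 2 and 1 against 33443 and 32793 in stomach rounds 2 and 1. KRT20 was the exception, higher in ovary by 0.97 ± 0.36, with its stomach round 2 array below the signal minimum. EPCAM, an epithelial surface marker, was 11.90 and 11.82 in ovary rounds 2 and 1 and 12.09 and 12.05 in stomach rounds 2 and 1. All 6 leukocyte markers above the signal minimum were also lower in ovary, their list summing to 1465 and 1361 in ovary rounds 2 and 1 and to 1597 and 1651 in stomach rounds 2 and 1, with PTPRC, FCER1G, AIF1, CD3E and MS4A1 below the minimum. Endothelial markers summed to 536 and 495 in ovary rounds 2 and 1 and to 574 and 519 in stomach rounds 2 and 1. PECAM1, KDR, TEK and EMCN were below the minimum. All 4 above it had a lower mean in ovary, but 0 of them were lower there in both rounds. Host cells would be those of the mouse, and the probe sets are named for human genes. The leukocyte and endothelial sums therefore cannot be read as amounts of host cells. The part of these marker lists in the site differences was not tested.

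The comparison of rounds asked what differed after a further passage through the mouse. Both round 2 arrays lay above both round 1 arrays for 11 of 31 members (SLC2A1, HK2, ALDOC, PFKFB4, ENO2, PKM, EGLN3, KDM3A, BNIP3L, VEGFA and P4HA2), against 22.2% of all genes. They lay below for 5 (SLC2A3, GPI, PFKP, TPI1 and ENO1), against 26.8%. For SLC2A3 those round 2 arrays were below the signal minimum. The round differences of PKM (0.035 ± 0.068) and PFKP (-0.025 ± 0.068) were smaller than their standard errors, although their arrays did not overlap. Round 2 was higher at both sites for 14 members, against 29% of all genes. A difference of 1.5-fold or more was reached by 1 member in the ovary lines, ENO2, against 3.39% of genes, and by 1 in the stomach lines, ANGPTL4, against 2.17%. For members outside the enzymes the median round difference was 0.063 in ovary and 0.28 in stomach. Immediate early genes, which respond to handling of cells, were higher in round 2 in 10 of 10, with medians of 0.70 in ovary and 0.095 in stomach and summed linear signals of 10040 and 7388 in round 2 against 6028 and 6374 in round 1 of the ovary and stomach lines. The medians for the lines of each site follow the titles, and the part of handling in the round differences was not tested. Epithelial markers were higher in round 2 in 8 of 11, with medians of 0.33 in ovary and 0.033 in stomach. Among them CEACAM5, an adhesion molecule of gut epithelium, had 11.30 and 9.70 in ovary rounds 2 and 1 and 11.34 and 10.95 in stomach rounds 2 and 1. Its mean round difference of 0.99 was the largest of that list. The epithelial markers KRT20 (-0.71), CDX2 (-0.12) and VIL1 (-0.046) were lower in round 2, and the stomach round 2 array of KRT20 lay below the signal minimum. Of the 4 endothelial markers above the minimum 1 was higher in round 2, ESAM, a junctional adhesion molecule, by 1.97-fold. Ovarian stroma and follicle markers summed to 964 and 938 in round 2 of the ovary and stomach lines, against 1182 and 1178 in round 1, with 4 of 9 below the minimum. Fibroblast markers summed to 624 and 630 in round 2 against 655 and 684 in round 1, with DCN, LUM, PDGFRA, FAP and FN1 below the minimum. Red blood cell markers summed to 179 and 169 in round 2 against 193 and 193 in round 1, with HBB below the minimum, and mesothelial markers to 457 and 477 in round 2 against 505 and 410 in round 1. As between sites, signals of the endothelial, ovarian, fibroblast, red blood cell and mesothelial lists cannot be read as amounts of mouse cells. The part of these lists in the round differences was not tested.

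**Figure D3:**
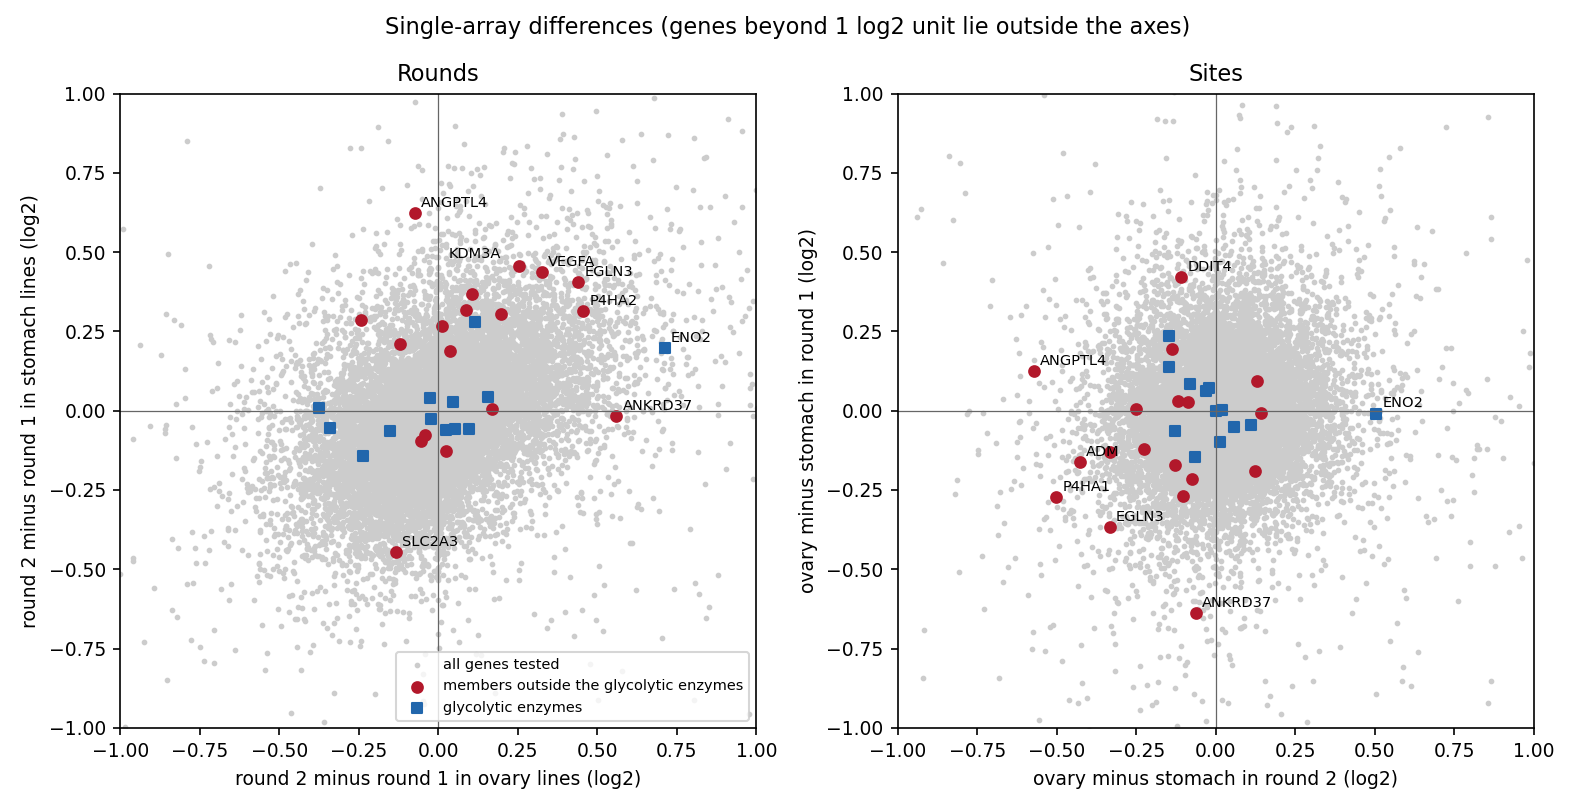
Each point is a gene, grey for all 14547 tested, circles for members outside the glycolytic enzymes and squares for the enzymes. The left panel sets round 2 minus round 1 in ovary lines against the same in stomach lines and the right panel ovary minus stomach in round 2 against round 1, in log2 units. KDM3A, VEGFA, EGLN3 and P4HA2 lie in the upper right corner of the left panel, and P4HA1, ADM and EGLN3 in the lower left of the right panel, and genes beyond 1 log2 unit lie outside the axes.

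For some members the round difference was unlike in the lineages of the 2 sites. The round difference in ovary minus that in stomach was -0.70 for ANGPTL4, 0.58 for ANKRD37, -0.53 for DDIT4, 0.51 for ENO2 and -0.38 for LDHA. None passed the interaction test in limma, where every member had an adjusted p of 1. For EGLN3 the same contrast was 0.033. These contrasts follow the titles. With the round 2 labels exchanged the rounds would be paired otherwise and each would take another value, a larger one for EGLN3.

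The machinery above these genes was measured from a separate list. Of 12 HIF machinery genes, 9 were higher in round 2 (median 0.10) and 7 lower in ovary (median -0.096), with 0 called by limma in either direction. HIF1A, the oxygen-labile subunit of HIF-1, had 9.62 and 9.56 in ovary rounds 2 and 1 and 9.69 and 9.35 in stomach rounds 2 and 1 (0.20 ± 0.10 between rounds). EPAS1, which encodes HIF-2 alpha, had 10.05 and 9.47 in ovary rounds 2 and 1 and 10.14 and 9.79 in stomach rounds 2 and 1, higher in round 2 by 0.47 ± 0.13. CITED2, which competes with HIF for the coactivators CBP and p300, was higher by 0.53 ± 0.11, with 10.94 and 10.40 in ovary rounds 2 and 1 and 11.12 and 10.58 in stomach rounds 2 and 1. These round groups did not overlap for any of the 3. VHL was higher in ovary without overlap (0.26 ± 0.087), and RBX1, a subunit of the VHL ligase, was higher in round 2 (0.32 ± 0.11).

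Other HIF targets were mostly higher in round 2, as were the members outside the enzymes, while between sites their median was near 0. Of 26 tested, 18 were higher in round 2 (median 0.17) and 14 were lower in ovary (median -0.0083), with 0 called. As titled, both ovary arrays lay below both stomach arrays for 8 of them, against 11.2% of all genes, and above for 2, against 13.4%. Ovary was lower in both rounds for 10, against 24.7% of all genes, and higher in both for 5, against 3676 of 14547 genes. BHLHE40, a circadian repressor, had 10.19 and 9.77 in ovary rounds 2 and 1 against 10.82 and 10.23 in stomach rounds 2 and 1, which gave -0.55 ± 0.25 for the site and 0.51 ± 0.27 for the round. HILPDA, a lipid droplet protein, was lower in ovary without overlap (-0.49 ± 0.13). GBE1, the glycogen branching enzyme, was higher in round 2 by 0.41 ± 0.076, and the hormone STC1 by 0.48 ± 0.094. Both round 1 arrays of STC1 lay below the signal minimum, so it passed through round 2 and its difference is not well measured.

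Carbohydrate pathways next to glycolysis were mostly lower in round 2. Of 17 further glycolytic and gluconeogenic enzymes tested, 14 were lower in round 2 (median -0.11), and of 9 pentose phosphate genes all 9 were lower (median -0.14), against 7929 of 14547 genes lower. LDHB, the heart-type lactate dehydrogenase, had 11.55 and 12.07 in ovary rounds 2 and 1 and 11.57 and 11.78 in stomach rounds 2 and 1 (-0.37 ± 0.12). PCK2, mitochondrial phosphoenolpyruvate carboxykinase, differed by -0.33 ± 0.13 and TKT, transketolase, by -0.18 ± 0.069 between rounds. FBP1, which reverses the phosphofructokinase step, was lower in ovary without overlap (-0.33 ± 0.13), and TIGAR, a fructose bisphosphatase, was higher in ovary (0.70 ± 0.23). TIGAR had 6.34 and 5.73 in ovary rounds 2 and 1 against 5.47 and 5.19 in stomach rounds 2 and 1, both of these below the signal minimum, so it passed the minimum through the ovary arrays and its difference is not well measured. PGLS (-0.17 ± 0.097) and PGD (-0.053 ± 0.099), enzymes of the oxidative branch, and TALDO1, transaldolase (-0.15 ± 0.13), completed the named pentose phosphate genes by their round differences.

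Pyruvate entry and the citric acid cycle were evenly divided, with 13 of 27 genes higher in round 2 (median -0.0093) and 14 of 27 higher in ovary (median 0.010). PDP1, a phosphatase that activates pyruvate dehydrogenase, was higher in round 2 by 0.36 ± 0.18, while PDK4, a kinase that inactivates it, differed by -0.25 ± 0.11. PC, pyruvate carboxylase, differed by -0.33 ± 0.11 and MPC1, a mitochondrial pyruvate carrier subunit, by 0.24 ± 0.12. Of 4 tested genes for lactate and proton handling, CA12, a carbonic anhydrase of the same family as CA9, was lower in ovary without overlap (-0.22 ± 0.10) and CA2 was higher (0.26 ± 0.12). BSG, the chaperone of lactate carriers, differed by -0.14 ± 0.079 between rounds and the bicarbonate transporter SLC4A7 by 0.17 ± 0.10 between sites.

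**Figure D4:**
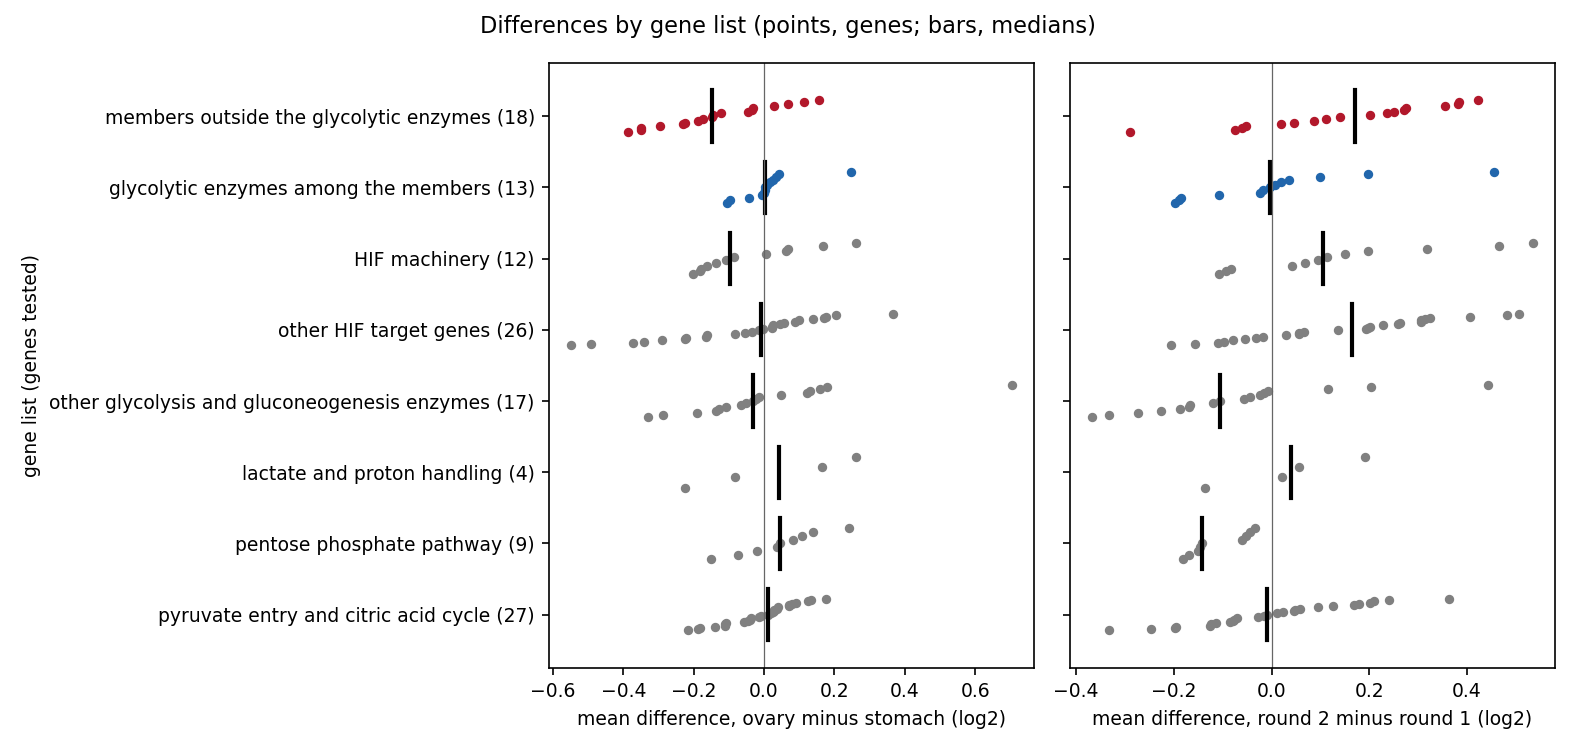
Points are genes, placed by the mean difference in log2 units between sites (left) and rounds (right), and bars are medians of each list, with the number of genes tested in brackets. Between rounds the medians are 0.17 for members outside the enzymes and for other HIF targets, -0.0026 for the glycolytic enzymes and -0.14 for the pentose phosphate genes.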

How the data were processed

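Biotin-labelled RNA of cell pellets was read on Affymetrix arrays, per the labels' protocols. The authors deposited log2 expression values per probe set for each array. The submitters' processing notes name Affymetrix Expression Console, and how background was corrected or arrays were normalized is not stated in them. Values running to about 14 with similar array medians gave the log2 scale.

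Rows were named through GEO's platform annotation: 19460 of 33297 carry 1 symbol, updated by gene identifier to a RefSeq table (19429 found), 1754 carry several and were not used, and 12083 are unnamed here. The probe set with the highest mean stood for a gene. Genes above the 30th percentile of row means (14547 of 18417) entered limma 3.58.1 under R 4.3.3 (lmFit with eBayes; p two-sided, Benjamini-Hochberg over all of them), on all 4 arrays, with 2 residual degrees of freedom. The fits were tested on simulated data. The replicate number is the round, so both sites share it; deviations from the site means correlated at 0.411 over genes between arrays of a round (2 pairs), and fits with a replicate block were made too. The interaction was fitted without site and round terms. Members, roles, the 6 pathway lists and the marker lists were chosen with earlier results of these data known. All members are named, and up to 4 genes per pathway list by the larger of their mean differences; HIF1A, EPCAM, PFKM, CEACAM5 and ESAM were added after their values were seen. Promoters are from RefSeq (GRCh38.p14); 29 of 33 members matched. Figures used matplotlib 3.10.9.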

Additional observations from a re-analysis of the deposited data

How the results depend on the processing

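Limma called 0 genes between sites, between rounds and for the interaction under the alternatives run for each: centring on medians or quantile normalization, no signal minimum or one at the 50th percentile, other choices of probe set, trended or robust priors and an adjusted p threshold of 0.10. The same held for sites and rounds with the replicate block or with an array left out, where the interaction could not be fitted. With the replicate block the smallest adjusted p was 0.122 between sites and 0.133 between rounds, and the block changed no call. Members with both round 2 arrays below both round 1 arrays numbered 8 after quantile normalization, against 5. Those with both ovary arrays above numbered 2 after centring on medians, against 1. The shares over all genes under these settings are not given.

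With the round 2 site labels exchanged, an alternative added after seeing the data, 0 genes were called between sites or for the interaction. Both ovary arrays then lay below for 3 members and above for 4, for which no share over all genes is given. Lower in ovary were 8 of the 18 members outside the glycolytic enzymes, against 7959 of 14547 genes tested. Site differences turned for SLC2A1 (0.053), HK1 (-0.055), PFKL (-0.078), TPI1 (0.14), PFKFB3 (-0.076), PFKFB4 (0.13), PGK1 (0.032) and ENO2 (-0.26). They turned also for PKM (-0.0091), KDM3A (0.10), BNIP3 (-0.018), BNIP3L (0.075), VEGFA (0.056), ADM (0.13), ANGPTL4 (0.35), P4HA1 (0.11) and VHL (-0.0061), and for RBX1 (0.10), CITED2 (0.0018), BHLHE40 (0.083), TIGAR (-0.16), BSG (0.026), PGLS (-0.14), PGD (0.028), MPC1 (0.089) and PDP1 (-0.34).

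With an array left out, a group is a single array and is assumed to vary like the other, and non-overlap is easier to reach. Shares over all genes are not given for these settings, so the counts that follow are not a result about the members. Members with the ovary below then numbered 9 to 17, with the ovary above 5 to 9, with round 2 above 14 to 17 and with round 2 below 8 to 9. Members outside the glycolytic enzymes lower in ovary numbered 9 to 14, a count added after seeing the data.

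Differences whose sign turned were not called in any setting. Quantile normalization turned the site difference of HK1 (-0.0088), PFKP (0.0032), ENO1 (-0.022) and PKM (-0.019) and the round difference of PFKL (-0.032), PGK1 (-0.0063), DDIT4 (-0.0064) and SLC4A7 (-0.023). Centring turned PFKP (0.00078) between sites and HK1 (0.021) and ALDOA (0.0054) between rounds. Leaving out each array in turn gave site differences of -0.12 to 0.035 for ALDOC, -0.54 to 0.087 for ANGPTL4, -0.14 to 0.049 for BNIP3L, -0.45 to 0.090 for CITED2 and -0.10 to 0.13 for ENO1. Ranges were -0.11 to 0.60 for ENO2, -0.49 to 0.090 for EPAS1, -0.28 to 0.17 for GBE1, -0.051 to 0.10 for GPI and -0.026 to 0.031 for HK1. Ranges were -0.14 to 0.14 for HK2, -0.14 to 0.23 for LDHA, -0.13 to 0.39 for LDHB, -0.37 to 0.081 for P4HA2 and -0.19 to 0.33 for PC. Ranges were -0.10 to 0.42 for PCK2, -0.077 to 0.13 for PDK1, -0.069 to 0.32 for PDK4, -0.26 to 0.45 for PDP1 and -0.26 to 0.010 for PFKFB4. Ranges were -0.015 to 0.082 for PFKL, -0.013 to 0.012 for PFKP, -0.12 to 0.19 for PGLS, -0.013 to 0.032 for PKM and -0.37 to 0.046 for RBX1. Ranges were -0.26 to 0.19 for SLC2A3, -0.11 to 0.39 for STC1, -0.11 to 0.076 for TKT, -0.18 to 0.16 for TPI1 and -0.25 to 0.19 for VEGFA. Leaving out each array in turn gave round differences of -0.092 to 0.055 for ALDOA, -0.012 to 0.56 for ANGPTL4, -0.048 to 0.59 for ANKRD37, -0.12 to 0.0054 for BNIP3 and -0.11 to 0.22 for CA12. Ranges were -0.19 to 0.23 for DDIT4, -0.41 to 0.074 for FBP1, -0.074 to 0.48 for HILPDA, -0.031 to 0.026 for HK1 and -0.16 to 0.010 for MXI1. Ranges were -0.048 to 0.22 for NDRG1, -0.049 to 0.45 for P4HA1, -0.052 to 0.14 for PDK1, -0.12 to 0.020 for PFKFB3 and -0.036 to 0.075 for PFKL. Ranges were -0.14 to 0.037 for PGD, -0.058 to 0.071 for PGK1, -0.13 to 0.17 for SLC4A7, -0.29 to 0.00032 for TALDO1 and -0.091 to 0.18 for VHL. With arrays left out, the sign was kept for the other members and the other pathway genes named by size. At a single-array threshold of 2-fold, 0 members passed in either comparison. With 2 arrays a group, limma could call only differences that are large beside the spread, and low signals such as that of SLC2A3 lie close to the minimum.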
